A study of Homo sapiens with 6 samples.

Results

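The proteins of the cytosolic ribosome were followed through their genes, 84 of the 33791 genes to which transcripts of the deposited table could be matched. They were chosen by symbol in GENCODE 29: protein-coding genes on the autosomes or the X chromosome that are named RPL, RPLP, RPS or RPSA, with no kinase of the RPS6K family. Of the 84 genes, 52 belong to the large subunit and 32 to the small subunit, and 4 lie on the X chromosome. The study measured RNA in 6 libraries of HepG2, a human liver cancer cell line. The treated group was 3 libraries of HepG2 cells given 20 µM atractylon, a plant sesquiterpene, and the control group was 3 libraries of HepG2 cells given no treatment. All cells were grown in DMEM with fetal bovine serum, and neither a vehicle for the controls nor a treatment time is given in the sources used here. The study set out to compare non-coding RNAs between these groups, and the ribosomal protein genes were measured in the same libraries. Nothing in the labels says that the 3 libraries of a group came from separate cultures, so p-values measure the spread between these libraries only, which may be technical.

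A ribosome holds one copy of most of its proteins, so a cell makes them in near-equal amounts, and their mRNAs are among the most abundant of a growing cell. In vertebrates these mRNAs mostly begin with a C followed by an unbroken run of C and T bases, the 5′ terminal oligopyrimidine or TOP motif. Through LARP1 and the kinase mTORC1 this motif sets how strongly they are translated. Proteins left over when assembly fails, RPL5 and RPL11 above all, bind the ubiquitin ligase MDM2 and so trigger a stress response. Liver cells use this machinery for the secreted proteins of blood plasma.

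RefSeq promoter sequences (GRCh38.p14) were found for 67 of the 84 genes, and the annotated start of transcription was read from each. A start was counted as TOP-like where a C opened a run of at least 5 C or T bases, read on the strand of the gene. This held for 43 of the 67 members, or 64.2%, against 5.12% of 9191 other protein-coding genes tested and 4.05% of all 27195 promoters. A C was the first base in 47 members, or 70.1%, against 11.5% of the other genes. The windows below hold 20 bases before the start and 10 from it. Capitals mark the C and T run. The first set shows genes with the run that head the order of levels, the contrast or a role described later.
RPL13A, chr19:49487588-49487617, plus strand: ccctgcgacaaaacctcctcCTTTTCCaag
RPS21, chr20:62387083-62387112, plus strand: tgccgggtgactagctgcttCCTTTCTCTC
RPS3, chr11:75399498-75399527, plus strand: cttccgcccgcgagccacttCCTTTCCTTT
RPLP0, chr12:120201102-120201131, minus strand: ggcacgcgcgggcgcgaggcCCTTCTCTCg
RPS6, chr9:19380227-19380256, minus strand: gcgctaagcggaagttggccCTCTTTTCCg
RPL28, chr19:55385912-55385941, plus strand: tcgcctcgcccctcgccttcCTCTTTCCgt
RPL14, chr3:40457319-40457348, plus strand: gggttgggcgggtcttcttcCTTCTCgcct
RPL21, chr13:27251538-27251567, plus strand: cgccgcggccccgcctctttCCTTTCggcc
RPS27, chr1:153990742-153990771, plus strand: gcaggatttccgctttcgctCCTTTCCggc

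The second set shows annotated starts without the run, from genes at the low end of the order of levels and from paralogs of genes with the run.
RPS27L, chr15:63157468-63157497, minus strand: cccggaagttgatgccgagcgcagatcgct
RPL26L1, chr5:172958709-172958738, plus strand: caggcagtcttccaggggtcggcgaacgaa
RPS26, chr12:56041898-56041927, plus strand: gctgggagacacataacctcgattttcttc
RPS28, chr19:8321476-8321505, plus strand: ggctctccccgaagcacgtgactcctctcc
RPL10, chrX:154398045-154398074, plus strand: ttccttttttccactctcagaaatatacgt

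In RPS27, as in the other windows of the first set, C and T bases also stand just before the annotated start, where the count did not begin, while its paralog RPS27L has no run at the start. In RPS26 and RPS28 a C and T run lies after the annotated start and in RPL10 before it, and the count did not take them. Not all low genes or paralogs lacked the run. It was counted in RPL22L1, a low paralog of RPL22, and in RPS9, which was also low. The median level of the 43 members with the run was 1475 FPKM, and that of the 24 without it was 803 FPKM. FPKM is the authors' count of fragments per kilobase of transcript, scaled to the depth of the library, here summed over the transcripts of a gene.

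Ribosomal protein mRNAs took 6.17, 7.08 and 6.75% of the counts assigned to genes in the 3 atractylon libraries, and 7.23, 6.92 and 5.81% in the 3 control libraries. The means were 6.66% ± 0.461 (SD, n = 3) and 6.65% ± 0.746 (SD, n = 3), and the treated values lay inside the range of the controls. In FPKM, which allows for their short length, they made up 15.9 to 18.9% of the sum over genes. Large-subunit genes drew 1.30, 1.30 and 1.30 times the counts of small-subunit genes in the treated libraries, and 1.29, 1.29 and 1.32 times in the controls. These are shares of RNA in bulk, in which a change in cell number and a change in RNA per cell cannot be told apart.

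Most members were abundant, with 48 at or above 1000 FPKM and 26 from 100 to below 1000 FPKM. Another 7 lay from 1 to below 100 FPKM and 3 below 1 FPKM. Their median was 1368 FPKM, with quartiles of 414 and 2262 FPKM, against 4.88 FPKM for all other genes with a value above 0. Of the 100 genes with the highest FPKM, 41 were members. The median was 1089 FPKM in the large subunit and 1619 FPKM in the small subunit.

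**Figure D1:**
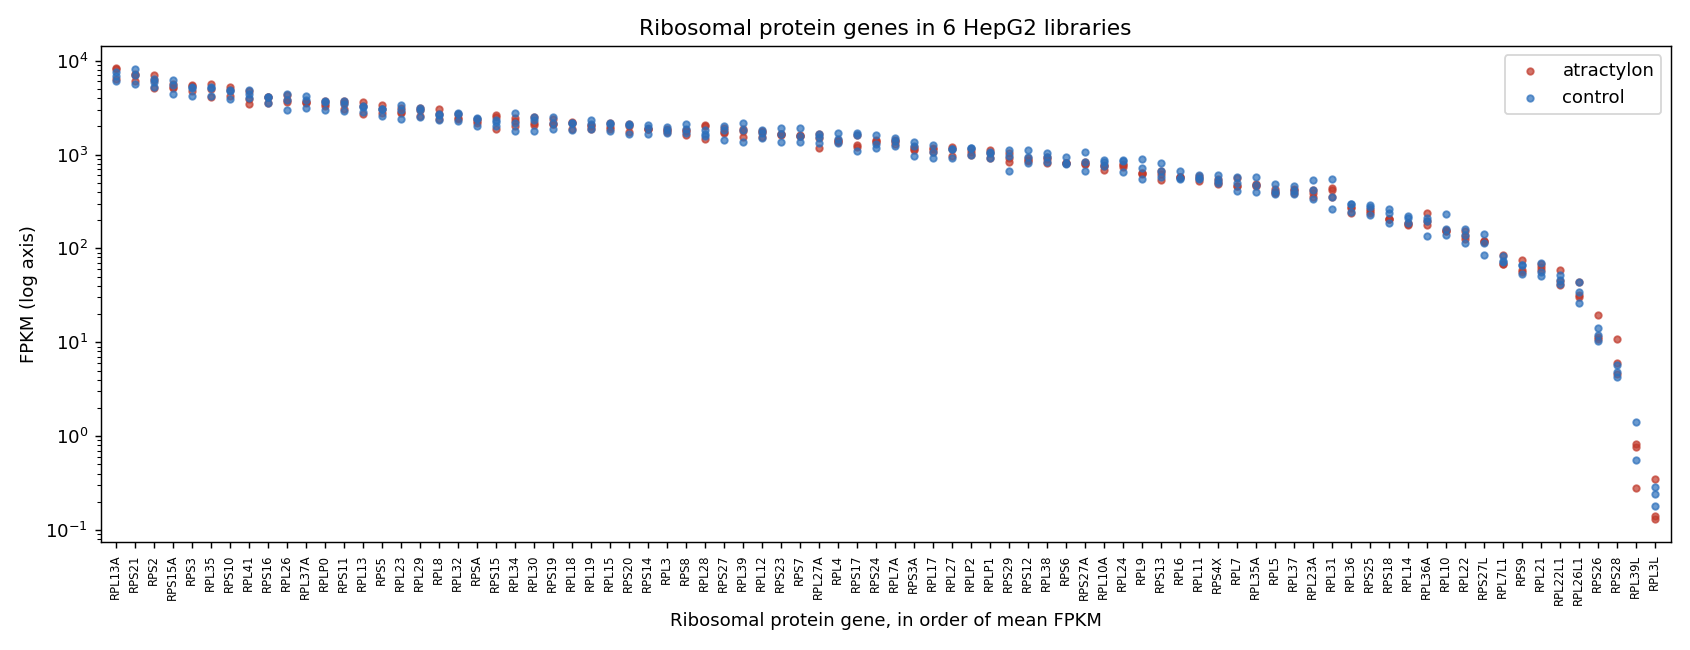
FPKM (log axis) of ribosomal protein genes in each of the 6 libraries, in order of its mean, with treated libraries in red and control libraries in blue; RPL10L and single values at 0 cannot be drawn on this axis. Most genes sit near or above 1000 FPKM with the libraries close together, and the order falls away steeply over the last genes, from RPS26 to RPL3L.

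The highest member was RPL13A, a large-subunit protein that in human myeloid cells also leaves the ribosome to silence inflammatory mRNAs. Its level was 6421, 8247 and 8242 FPKM in the treated libraries and 6905, 7624 and 6107 FPKM in the controls. RPS21, of the small subunit, followed with 6006, 7287 and 7010 FPKM against 8204, 7019 and 5641 FPKM. The libraries of both genes overlapped between the groups, and these neighbours in the order did not differ beyond their spread. RPS2, which lies near the mRNA entry channel, averaged 5953 FPKM, and RPS15A averaged 5352 FPKM. RPS3, which also lines the mRNA entry site and has a role in DNA repair, averaged 5023 FPKM. RPL35, beside the exit of the peptide tunnel, averaged 4882 FPKM.

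The order, the counts of members by level and the shares in FPKM depend on the length by which counts are divided. The deposited FPKM of short transcripts exceeded the depth-scaled counts per kilobase of full transcript length by a median of 1.54 times over the members, and by more than 2 times in 11 of them. RPL41, the smallest ribosomal protein, stood 8th with 4223 FPKM. By full length it came to 598 on that scale and stood 47th. A transcript of 238 bases, RPL41-205, held 348 counts on average but 3444 FPKM. RPS21 moved from 2nd to 16th place, with 1881 by full length. RPL13A kept the first place on both scales, and RPS2, RPS15A, RPS3 and RPS10 were among the first 7 on both. By full length RPL34 stood 36th with 1012 and RPL27A 37th with 995, so fewer members reached 1000 than the 48 by deposited FPKM.

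Lowest among the members that passed the filter on low values were RPL21 (61.1 FPKM), RPL22L1 (47.5 FPKM), RPL26L1 (35.2 FPKM), RPS26 (13.1 FPKM), RPS28 (6.07 FPKM) and RPL39L (0.638 FPKM). RPL22L1, RPL26L1 and RPL39L are second copies of a ribosomal protein gene, whereas RPL21, RPS26 and RPS28 encode core proteins of the ribosome. RPS26, which lines the mRNA exit channel, was listed at 10.7, 11.4 and 19.6 FPKM in the treated libraries and 14.4, 10.4 and 12.04 FPKM in the controls. RPS28, its neighbour at the exit channel, was listed at 10.97, 6.09 and 4.57 FPKM against 4.8, 5.68 and 4.28 FPKM. For both genes the listed level was low in all 6 libraries and the groups overlapped. In RPS28 the transcript with the largest share, 53.5% ± 11.4 (SD, n = 6) of the counts, was RPS28-202, which is annotated as retaining an intron. Transcripts that could not be matched to a gene held 8.70 to 9.07% of all counts in a library, and whether reads of these low genes lie among them was not tested.

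In each of the paralog pairs the common copy exceeded the second one by a wide margin. RPL3, at the peptidyl transferase centre, had 1814 FPKM, and RPL3L, its copy in striated muscle, had 0.222 FPKM. RPL10, which joins the large subunit late in assembly, had 166 FPKM, and the testis copy RPL10L was listed at 0 in every library. RPL39, at the peptide tunnel, had 1753 FPKM, and its testis copy RPL39L had 0.638 FPKM. RPL26 (3811 FPKM) stood over RPL26L1 (35.2 FPKM), and RPL7 (496 FPKM) over RPL7L1 (74.4 FPKM). RPS27 (1768 FPKM) stood over RPS27L (116 FPKM). The narrowest pair was RPL22 (138 FPKM) and RPL22L1 (47.5 FPKM).

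Ribosomal protein genes have left many processed copies in the genome. Of 1140 annotated pseudogenes named for 77 of the members, 178 had a count in any library, and 4 parents had over 10% of the joint counts of parent and copies in the copies. RPL21P16 was listed at 1024, 887 and 898 FPKM in the treated libraries and 1147, 864 and 863 FPKM in the controls. Its parent RPL21 had 58.8, 68.1 and 63.3 FPKM against 69.5, 51.2 and 55.8 FPKM, so that 89.0% of the joint counts lay in the copies. The share was 46.5% for RPL23A, with RPL23AP42 at 590 FPKM. It was 39.8% for RPL9, with RPL9P9 at 422 FPKM, and 30.7% for RPL22, with RPL22P1 at 347 FPKM. A processed copy can be near-identical to its parent, so reads can fall to either, and the levels of these 4 parents are uncertain. RPS26, RPS28, RPS9, RPS18 and RPL10, which were also low for genes of the core ribosome, had under 1% of the joint counts in named copies.

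**Figure D2:**
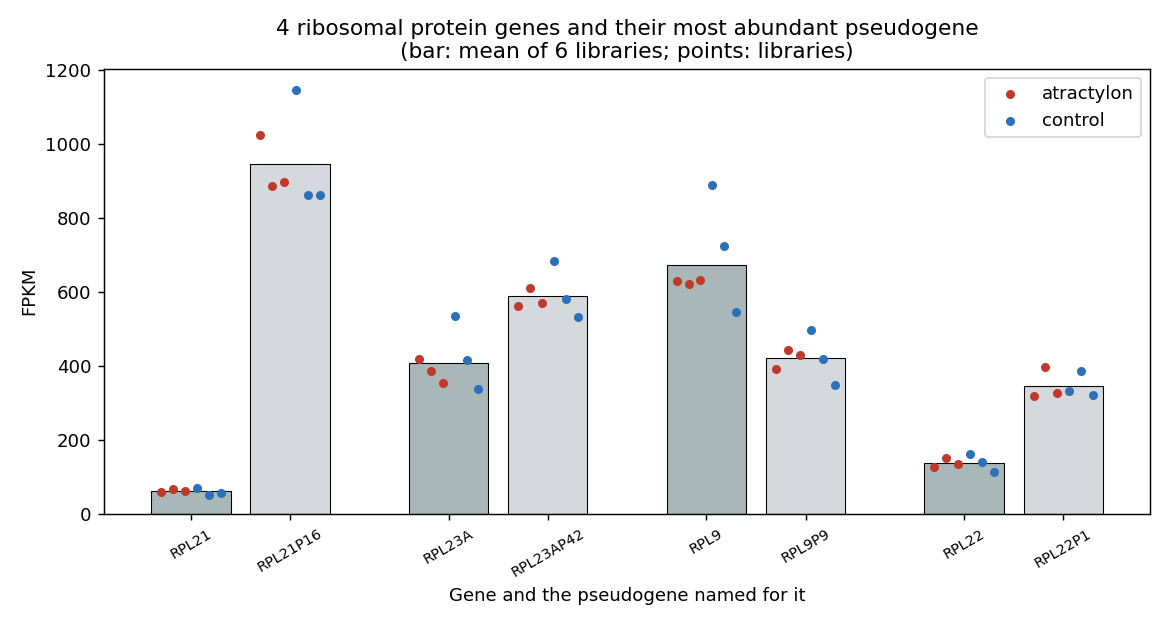
FPKM of 4 ribosomal protein genes and of the most abundant pseudogene named for each, as the mean of 6 libraries (bars) and each library (points; red treated, blue control). RPL21P16 stands at 947 FPKM beside 61.1 FPKM for RPL21, while RPL9 at 674 FPKM exceeds RPL9P9.

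The table gave 771 transcripts for the 84 genes, of which 416 were annotated as protein coding. In the 77 members with at least 100 counts in every library, the leading transcript held a median of 86.4% of the gene's counts, from 37.5 to 99.8%. It held over 90% in 36 members and under 50% in 10. In RPS10, a protein of the small-subunit head, RPS10-201 held 99.8% ± 0.0535 (SD, n = 6). The most divided genes by spread over libraries were RPL23A, RPL21, RPL29, RPS27L and RPL17. RPL23A-201 held 48.7, 40.7 and 43.4% of RPL23A under atractylon and 38.5, 27.7 and 44.2% in the controls, and the groups overlapped.

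In 6 of these 77 genes, and in RPS28 as given above, the leading transcript was one annotated as retaining an intron. The 6 were RPL13A, RPL17, RPL35A, RPL4, RPL8 and RPS23. RPL13A-204 took 51.0% ± 3.85 (SD, n = 6) of the counts of RPL13A, and the coding RPL13A-201 took 48.5% ± 3.80 (SD, n = 6). In RPL4, at the wall of the peptide tunnel, RPL4-203 took 74.8% ± 1.47 (SD, n = 6). Over all members, retained-intron transcripts drew 8.43, 8.77 and 9.20% of counts with atractylon and 7.82, 8.77 and 8.80% without. The group means were 8.80% ± 0.385 and 8.46% ± 0.556 (SD, n = 3 each), and the libraries overlapped. Over all protein-coding genes this share was 3.19 to 3.36%. Reads shared by overlapping transcripts were divided by an estimate, so these shares carry an error that the spread over libraries does not show.

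No difference between atractylon and control passed the test in any ribosomal protein gene. With p-values from edgeR's quasi-likelihood fit, adjusted by Benjamini-Hochberg over 12302 genes, 0 of the 82 members tested were called at 0.05 (smallest adjusted p = 0.9999), where 0% of all genes were called. RPL3L and RPL10L were not tested because they did not pass the filter, FPKM of at least 0.5 in 3 of the 6 libraries. At an unadjusted p under 0.05 there were 0 members, against 1.59% of all genes, and DESeq2 and limma also called 0 genes after adjustment. The log2 fold change, treated over control, was above 0 in 41 members and below 0 in 41, and 53.3% of all genes were above 0. Its median was 0.00 (0.003366), against 0.01 for all genes tested. In the large subunit 26 genes were above 0 and 24 below, and in the small subunit 15 were above and 17 below.

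The fit gave narrow intervals for most members, but these measure the spread between these libraries only, which may be technical. The standard error of the log2 fold change had a median of 0.13, against 0.20 over all genes. The 95% interval lay within 1.5-fold in both directions for 78 of the 82 members, against 54.6% of all genes. The 4 with wider intervals were RPL26L1, RPS26, RPS28 and RPL39L, all with low counts. No interval holds the error of dividing reads between a parent and its copies. That error leaves RPL21, RPL23A, RPL9 and RPL22 uncertain as well. The fitted values ran from -0.25 in RPL26L1 to 0.31 in RPS28. For RPL26L1 limma on log2(FPKM + 0.5) gave 0.04, on the other side of 0.

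**Figure D3:**
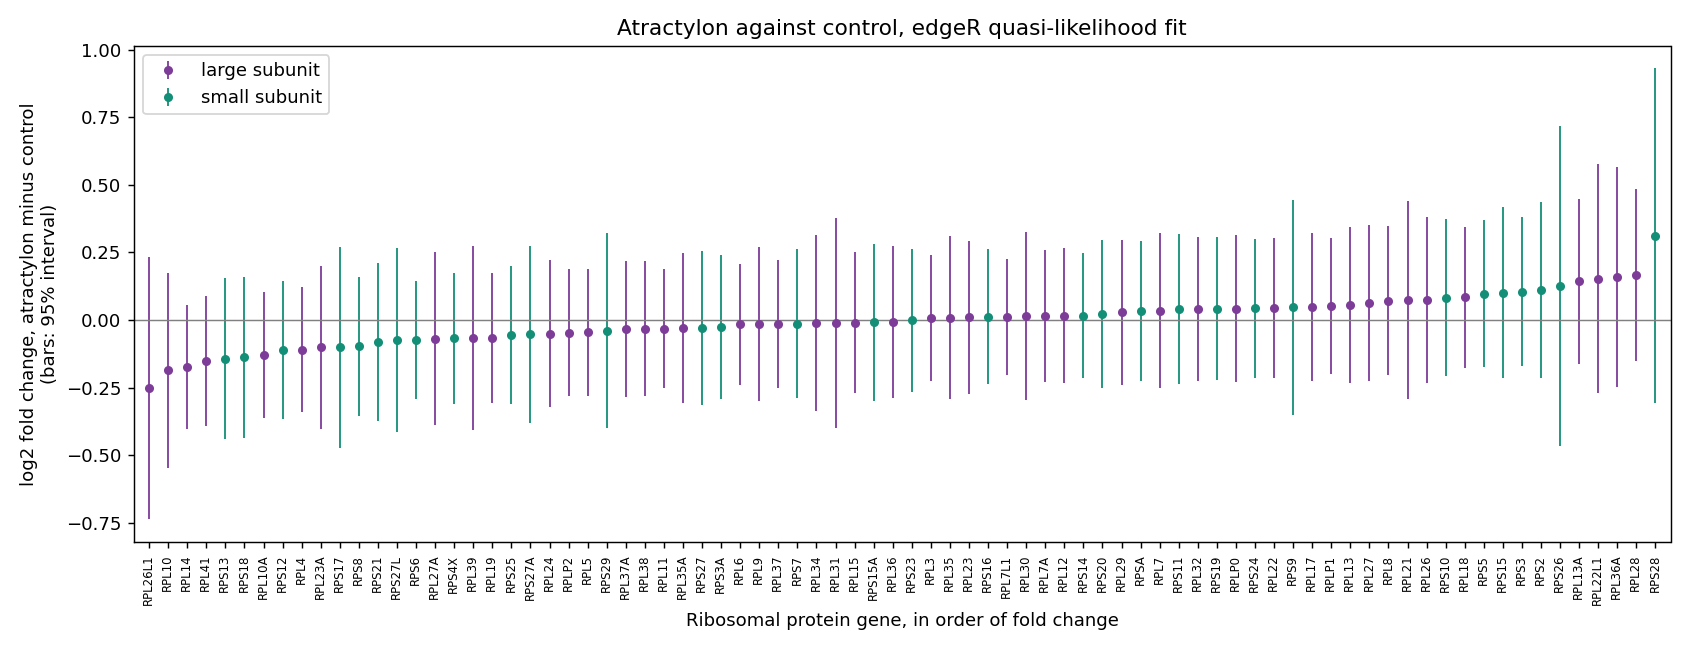
Log2 fold change of ribosomal protein genes, atractylon minus control, with 95% intervals from edgeR's fit, in purple for the large and green for the small subunit; RPL39L, whose interval runs from -2.09 to 2.34, is left out for scale. Every interval drawn crosses 0, and genes of both subunits are spread along the whole order.

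On the high side the smallest p was that of RPL28, a large-subunit protein of animals and other eukaryotes that Saccharomyces cerevisiae lacks. Its values were 865, 1255 and 1231 CPM with atractylon and 926, 1086 and 973 CPM without, where CPM is the count scaled to a fixed library size with edgeR's scaling factors. The lowest library of all 6 was a treated one and the groups overlapped. The log2 fold change was 0.17 ± 0.14 (SE; edgeR quasi-likelihood, unadjusted p = 0.2732, Benjamini-Hochberg adjusted p = 0.9999). RPS28 came next by p, with a log2 fold change of 0.31 ± 0.28 (SE). RPL13A, after it, had 4266, 5626 and 5463 CPM against 4761, 5061 and 4084 CPM, a log2 fold change of 0.14 ± 0.14 (SE). RPL36A (0.16 ± 0.18) and RPS3 (0.10 ± 0.12) had log2 fold changes (± SE) below their errors.

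RPL14 was the only member whose libraries did not overlap between the groups, 1 of 82, where 5.72% of all genes did not overlap. Over all genes 3.02% did so with lower and 2.71% with higher treated values. RPL14, a large-subunit protein at the surface of the particle, had 119.0, 115.5 and 120.1 CPM with atractylon and 142.4, 136.5 and 121.1 CPM without. The highest treated and the lowest control library lay about 1 CPM apart. Its log2 fold change was -0.17 ± 0.10 (SE), which did not pass edgeR's quasi-likelihood test (unadjusted p = 0.1244, Benjamini-Hochberg adjusted p = 0.9999). RPL10 had 67.0, 68.0 and 67.0 CPM against 99.1, 69.0 and 62.4 CPM. Here the treated libraries lay within 2 CPM of each other, and control 1 alone stood above them by a wide margin. The log2 fold changes were -0.19 ± 0.16 for RPL10, -0.15 ± 0.11 for RPL41, -0.13 ± 0.11 for RPL10A and -0.25 ± 0.22 for RPL26L1 (± SE).

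Other members were named for a role in signalling, at the stalk or outside the particle. RPS6, the protein phosphorylated by S6 kinase downstream of mTORC1, had 810, 825 and 829 CPM in the treated and 944, 813 and 836 CPM in the control libraries, with a log2 fold change of -0.07 ± 0.10 (SE). Control 1 was the highest library and the other 5 lay between 810 and 836 CPM. The MDM2-binding proteins RPL5, RPL11 and RPL23 had log2 fold changes of -0.05 ± 0.11, -0.03 ± 0.10 and 0.01 ± 0.13 (± SE). The stalk that recruits elongation factors is built on RPLP0 with RPLP1 and RPLP2, at 0.04 ± 0.12, 0.05 ± 0.11 and -0.05 ± 0.11 (log2 fold change ± SE). RPSA, of the small subunit and also described as a laminin receptor, had 0.03 ± 0.12 (log2 fold change ± SE).

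Between single libraries the members deviated together. Each gene's log2 CPM was set against its own mean over the 6 libraries. The median of these deviations over the 82 members was -0.11, 0.08 and 0.01 under atractylon and 0.16, 0.06 and -0.20 in the controls, while over all genes it stayed between -0.01 and 0.01. In control 3, 81 of the 82 members were below their own mean, against 50.3% of all genes. In control 1, 77 were above it, against 51.6% of all genes. In atractylon 1, 72 were below it, against 48.9% of all genes. Control 3 was the lowest library of all for 59 members (72.0%), against 14.9% of all genes. Control 1 was the highest for 47 (57.3%), against 16.8% of all genes. For other members a treated library stood at the end. Atractylon 2 was the highest for 31 members and atractylon 1 the lowest for 19, and no share over all genes was taken for these counts. The gap between control 1 and control 3 was 0.36 in median log2 CPM, or 1.29-fold, within a group that received the same handling by its labels.

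**Figure D4:**
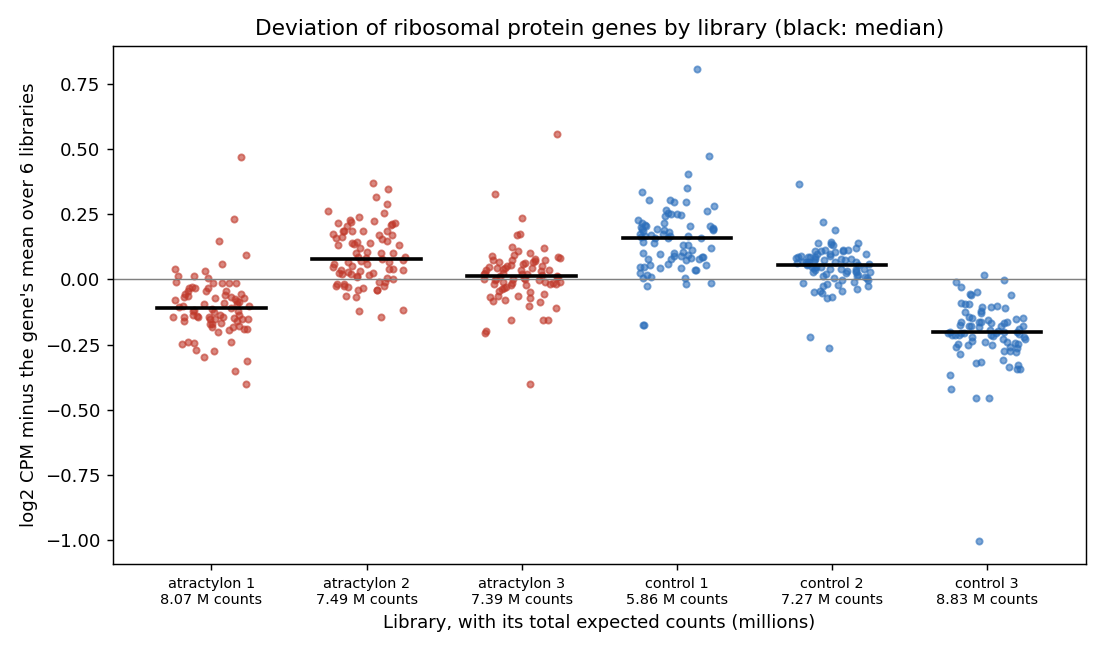
Deviation of each of 82 ribosomal protein genes from its own mean over 6 libraries (log2 CPM, points) and their median (black bar) by library, with the total expected counts of the library below its name. Control 1 lies above 0 and control 3 below 0 for nearly all genes, and the medians of the treated libraries fall between theirs.

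The libraries at both ends were also those with the fewest and the most counts. Control 1 had 5859575 expected counts in all and control 3 had 8832092, and the other libraries held between 7268968 and 8072321. The part of depth in the deviation was not tested. Both subunits moved alike: in control 3 the median deviation was -0.19 for the large and -0.22 for the small subunit, and in control 1 it was 0.15 and 0.18. Members with a TOP-like start and members without it were at -0.20 and -0.18 in control 3. Among other tested genes, the 471 with a TOP-like start had a median of -0.03 in control 3, and 54.8% of them were below their mean there, against 100% of the 43 members with such a start.

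In part of the libraries the size of the deviation followed GC content. Spearman's correlation between the deviation and the GC content of the transcripts over the 82 members was -0.57, 0.31 and 0.44 under atractylon and -0.56, 0.28 and 0.21 in the controls. Over all 12302 genes it was -0.60, 0.59 and 0.39, then -0.42, 0.18 and 0.02. These are correlations across genes of the same libraries, which are not independent replicates. In control 1 the 41 members of lower GC had a median deviation of 0.19 and the 41 of higher GC had 0.08. In control 3 the medians of both sets were low, at -0.23 and -0.18. The median GC content of the members, 49.6%, was close to the 50.1% of all genes, while their median length of 774 bases was far below the 2474 bases of all genes. Spearman's correlation between deviation and length in all genes was 0.39 in atractylon 1 and 0.30 in control 3, the libraries where the short ribosomal protein mRNAs were low. It was -0.32, -0.19, -0.09 and -0.20 in atractylon 2, atractylon 3, control 1 and control 2. Over the 82 members the correlation with length was 0.15, -0.12 and -0.09 under atractylon and -0.27, -0.28 and 0.40 in the controls. What part GC content and length have in the shared deviation was not tested.

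**Figure D5:**
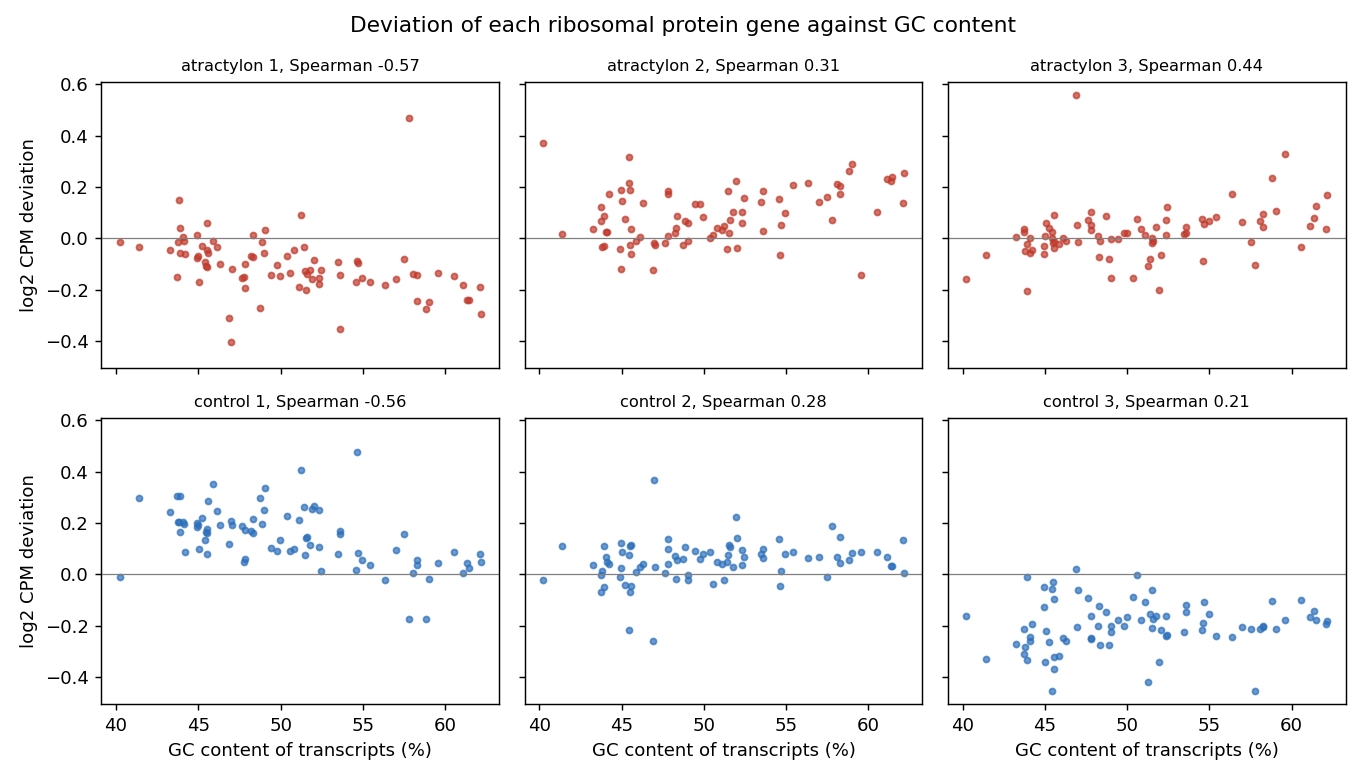
Deviation of each ribosomal protein gene (log2 CPM minus its mean over 6 libraries) against the GC content of its transcripts, by library, with Spearman's correlation over 82 genes; RPL39L is not drawn, for scale. In atractylon 1 and control 1 the points fall with rising GC content, in atractylon 2 and atractylon 3 they rise, and in control 3 nearly all lie below 0.

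The sign of the members' median fold change followed the choice of libraries. Without control 1 the median log2 fold change was 0.08, with 70 members above 0 and 12 below. Without control 3 it was -0.09, with 14 above and 68 below. Without atractylon 1 it was 0.05, and without atractylon 2 it was -0.05. In none of these fits was a member called by edgeR with Benjamini-Hochberg adjustment. The fit without atractylon 1 came nearest, with 5 members at an unadjusted p under 0.05, where 10.7% of all genes reached it. RPL28, RPL13A, RPS15 and RPS2 were among them, all higher with atractylon. In RPL28 the log2 fold change was then 0.32 ± 0.09 (SE; edgeR, Benjamini-Hochberg adjusted p = 0.3568). With the trend on GC content removed from all libraries, the median of the members was 0.02.

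At the level of single transcripts, 0 of the 517 tested transcripts of members were called by edgeR with Benjamini-Hochberg adjustment over 39882 transcripts, where 0% of all were. At an unadjusted p under 0.05 there were 11, against 2.33% of all transcripts. The groups did not overlap in 32 of the 517, or 6.19%, against 8.5% of all transcripts. Those with the smallest p were minor forms that the counts placed in only 1 group. RPL17-209 had 23 counts over the 3 treated libraries and 0 over the controls. RPL18-214 (18 counts) also had 0 counts in the controls. Conversely RPL38-204, which retains an intron, had 0 counts with atractylon and 20 without, and RPL31-206 had 0 and 12. A form at 0 in 1 group could pass the filter only through the other group, so its split is no support for a difference. The division of reads between transcripts adds an error that the fit does not see. Among abundant forms, RPL15-204 had 73.6, 63.7 and 74.5 CPM against 88.7, 88.8 and 78.1 CPM. The groups did not overlap for RPL15-204, and its adjusted p in edgeR with Benjamini-Hochberg adjustment was 1.

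The share of the leading transcript did not overlap between the groups in 14 of 77 members, 8 higher and 6 lower with atractylon. Among 6505 genes of the whole table, 9.38% did not overlap. Those genes were not matched to the members in number of transcripts and can include genes whose share is fixed at 100%. Their rate can therefore be too low as a background, and no excess in the members is read from it. RPL10-207 held 99.8, 100 and 100% of RPL10 under atractylon and 96.9, 94.8 and 93.1% in the controls. The rest of the control counts was listed in RPL10-215 in control 3 alone and in RPL10-210 in control 2 alone, among others. RPL31-208 held 66.1, 66.4 and 67.2% of RPL31 against 69.5, 72.4 and 71.4%. RPL7-203 held 56.3, 59.9 and 62.4% of RPL7 against 55.5, 55.1 and 51.1%. RPL10, RPL31 and RPL7 were chosen here after their values were seen, and no test was made on shares.

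Around the ribosome, the genes that build, load and regulate it were read from the same fit. Of 222 genes in 13 lists, 216 were tested and 0 were called by edgeR with Benjamini-Hochberg adjustment, and 112 had a log2 fold change above 0 and 104 below. Libraries of treated and control cells stood fully apart in 2 genes on the high and 9 on the low side, where 5.72% of all genes did not overlap. NOC4L, an assembly factor of the small subunit, was the only one at an unadjusted p under 0.05. Its values were 50.4, 58.7 and 65.4 CPM in the treated and 42.8, 51.5 and 46.0 CPM in the control libraries, and the groups overlapped. Its log2 fold change was 0.31 ± 0.14 (SE; edgeR, Benjamini-Hochberg adjusted p = 0.9999).

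Of the 45 small-subunit assembly factors tested, 24 were above 0 and 21 below (median 0.00), and of the 46 large-subunit factors, 27 were above and 19 below (median 0.04). EFL1, the GTPase that frees new large subunits of eIF6, had 6.88, 5.77 and 5.00 CPM against 9.18, 7.38 and 8.28 CPM. Its libraries did not overlap, and its log2 fold change was -0.49 ± 0.24 (SE). Of 20 genes of RNA polymerase I and its factors, 11 were above 0 and 9 below (median log2 fold change 0.04). Among 24 other initiation factors, 9 were above 0 and 15 below, with a median of -0.03. EIF2S2, a subunit of the factor that brings the initiator tRNA, had 52.95, 47.0 and 50.9 CPM against 69.0, 53.6 and 59.6 CPM, a log2 fold change of -0.27 ± 0.13 (SE) with no overlap.

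Among regulators, TSC2, which restrains mTORC1, had 125, 146 and 137 CPM with atractylon and 96.3, 131 and 121 CPM without, and its groups overlapped. MYC, a driver of ribosome synthesis, had 172, 213 and 209 CPM against 167, 183 and 187 CPM. The log2 fold changes were 0.22 ± 0.13 for TSC2 and 0.14 ± 0.11 for MYC (± SE), and in MYC atractylon 1 lay among the controls. The 10 genes of the ribosomal stress response had a median log2 fold change of 0.10, with 8 above 0 and 2 below, where 53.3% of all genes were above 0. Their median deviation from the gene's mean was -0.12, 0.15 and 0.14 under atractylon and -0.13, 0.01 and 0.01 in the controls. Atractylon 1 thus lay near control 1, and the groups overlapped. The 14 genes of mTORC1 and the TOP regulators had a median of 0.01. Of the other lists, 7 of 10 elongation factors and 9 of 14 eIF3 subunits were above 0 (medians 0.06 and 0.06). Below 0 were 6 of 7 termination and recycling factors, 5 of 6 other TOP mRNAs and 7 of 10 chaperones and importers of ribosomal proteins (medians -0.04, -0.02 and -0.02). MYC and its partners had 4 genes above 0 and 5 below, with a median of 0.00.

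In control 3 the 10 elongation factors had a median deviation of -0.17, near that of the ribosomal proteins, and 8 of them were below their own mean. In control 1 they were at 0.03, against 0.16 for the ribosomal proteins, and 6 were above their own mean. EEF1A1, which brings aminoacyl-tRNA to the ribosome and has a TOP mRNA itself, had 7580, 6733 and 7105 CPM with atractylon and 9286, 7064 and 6548 CPM without. Control 1 was its highest and control 3 its lowest library. The 4 ribosomal proteins outside the symbol rule, FAU, RACK1 and RPL36AL among them, had a median deviation of -0.11 in control 3, with 3 below their own mean. RPL36AL went the other way, with its highest value, 17.8 CPM, in control 3. FAU, which encodes a small-subunit protein fused to a ubiquitin-like one, had 367, 450 and 459 CPM against 397, 437 and 362 CPM. The 6 other TOP mRNAs had a median of -0.06 in control 3, with 4 below their own mean, and 0.11 in control 1, with 5 above it. The assembly factors of the small and the large subunit had medians of -0.04 and -0.04 in control 3. Other lists also deviated in treated libraries. In atractylon 1 the elongation factors, eIF3 subunits and ribosomal stress genes were at -0.16, -0.11 and -0.12, against -0.11 for the ribosomal proteins. In atractylon 2 they were at 0.13, 0.03 and 0.15, against 0.08. The chaperones and importers went the other way, at 0.22 in atractylon 1 and -0.22 in atractylon 2.

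The identity of the cells was read from marker genes. All 10 hepatocyte markers were at or above 0.5 FPKM in all 6 libraries, with sums of 27070 to 27370 FPKM in the treated and 25020 to 26870 FPKM in the control libraries. No test was made on the sums, and single markers overlapped between the groups. APOA2, the largest part, had 10550, 12460 and 12650 FPKM against 10690, 11400 and 9972 FPKM. ALB had 5155, 2845 and 2812 FPKM against 3857, 3310 and 3569 FPKM. Of 6 fibroblast and stromal markers 1 reached 0.5 FPKM in all libraries, and COL1A2, COL3A1, DCN and LUM were listed at 0. Of 6 blood and immune markers 3 did, LYZ with 517 to 668 FPKM among them, while HBB was listed at 0 and PTPRC did not exceed 0.03 FPKM. Of 4 endothelial markers 1 did, and KDR was listed at 0.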

How the data were processed

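RNA was measured in 3 libraries of atractylon-treated and 3 of untreated HepG2 cells, per the labels. The authors deposited, per the file headers, an expected count (an estimated read number that need not be whole) and an FPKM value for each of 180253 transcripts and library. bcl2fastq 2.17.1.14, cutadapt 1.9.1, HISAT2 2.0.1 and DESeq2 1.6.3 are named in the submitters' processing notes, with hg19. Which program made the counts, on which annotation and with what use of strand, is not given in the sources used here, so overlapping and antisense genes and near-identical copies are uncertain. Low-input amplification, per the labels' protocols with a SMART-Seq kit, can shift values with GC content and length.

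Of the transcripts, 153245 (85.0%) matched GENCODE 29. Values were summed per gene, expected counts were rounded, and genes with FPKM of at least 0.5 in 3 of 6 libraries were tested with edgeR 4.0.16 (R 4.3.3), two-sided, with TMM scaling, group as the only term and Benjamini-Hochberg adjustment over all genes. CPM, deviations (prior count 2) and shares were computed from the counts. Totals were 5859575 to 8832092 counts per library. Pairs of replicates differed by 3.49 to 20.3 times the sampling variance, so none was counted as 1 sample.

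Alternatives used DESeq2 1.42.0 and limma 3.58.1 on log2(FPKM + 0.5), among others, and the fit was tested on simulated data. The members and lists were chosen with earlier results of these data known. Named were the 6 highest and 6 lowest members, up to 5 with the smallest p in each direction, paralog pairs, members with known roles, transcripts by the same rule, and up to 2 genes per list. Promoter sequences are RefSeq's on GRCh38.p14 and were matched by symbol. No value was placed on genome coordinates. Values of some genes that the rule names are not reported here.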

Additional observations from a re-analysis of the deposited data

How the results depend on the processing

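The count of members called stayed at 0 under DESeq2 size factors, no scaling beyond totals, DESeq2, both other filters on low values, unmatched transcripts kept, limma with both pseudocounts, the GC trend removed, and pseudogenes added to their parents, an alternative chosen after seeing the data. The number of genes called over the whole table was 0 throughout, except that leaving out 1 library gave 0 to 1, the 1 without atractylon replicate 1. The same holds for 0 called transcripts of members, although DESeq2 called 48 transcripts and the fit with no filter called 10 over the whole table. The median log2 fold change of the members ranged from -0.02 with no scaling, where the median of all genes was -0.01, to 0.02 with the GC trend removed, and from -0.09 to 0.08 when 1 library was left out. For 34 named genes, 611 refitted fold changes held 0 calls (smallest adjusted p 0.3568 in edgeR) and 76 changes of sign in 27 genes. Only 11 values moved by more than their standard error, 7 of them without 1 library.

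Deviations of same-numbered treated and control libraries correlated at 0.13, 0.18 and 0.01, and those of differently numbered ones at -0.17 to 0.02. Whether replicate numbers pair the samples was not tested, and the labels do not say so. With the replicate block, 0 genes, 0 members and 0 transcripts of members were called, and the median of the members was 0.01 (0.009232), or 0.03 with the block and the GC trend removed.

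With pseudogenes added, the log2 fold change of RPL21 went from 0.07 to -0.03. Depth limits RPS26, RPS28, RPL26L1 and RPL39L most; with few counts, their intervals allow changes beyond 1.5-fold.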
